A study of Homo sapiens with 18 samples.

Results

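The genes described here are 10 regulators of the G1 phase of the cell cycle: the D cyclins CCND1, CCND2 and CCND3, their kinases CDK4 and CDK6, and 5 CDK inhibitors, CDKN1A, CDKN1B and CDKN1C of the CIP/KIP family and CDKN2C and CDKN2D of the INK4 family. They were taken by matching Ensembl gene IDs to these symbols, and 10 of 10 were found among the 40184 rows of the deposited table. The table holds RNA-seq values for 18 cultures of 3 human acute myeloid leukaemia (AML) cell lines. Molm-14 and MV4-11 are labelled FLT3-ITD, an internal tandem duplication that activates the receptor FLT3, and SKNO-1 is labelled KIT N822K, an activating mutation of the receptor KIT. Cultures of each line spent 24 h in DMSO, the vehicle, or in 500 nM RMC-4550, an allosteric inhibitor that holds the phosphatase SHP2 (PTPN11) in its closed, inactive form. This gave 6 groups of 3 cultures, labelled as biological replicates. SKNO-1 alone was grown with the cytokine GM-CSF, at 10 ng/mL and in both arms, so that line and growth factor cannot be told apart. Each line is a single established culture, so differences between lines are differences between these cultures and not between genotypes.

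SHP2 couples activated receptor tyrosine kinases to RAS and ERK, and ERK activity raises transcription of D cyclin genes in many cell types. D cyclins bind CDK4 and CDK6, and the complexes phosphorylate the retinoblastoma protein RB, which releases E2F transcription factors and allows entry into S phase. INK4 proteins bind CDK4 and CDK6 and block their pairing with D cyclins, whereas CIP/KIP proteins bind cyclin-CDK complexes and inhibit CDK2 in particular. Blood progenitors rely mainly on CCND2, CCND3 and CDK6. The comparisons below ask which D cyclin transcript was most abundant in each line, and how each gene differed between cultures with and without the SHP2 inhibitor.

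Levels are in CPM, which corrects reads for the size of the library, and comparisons between genes are in CPM per kb of transcript. Libraries held 17434810 to 19959917 reads. In 4 of the 18 libraries, mitochondrial genes took 10.5% to 15.02% of the reads, against 5.07% to 7.02% in the other 14. These 4 are replicate 2 of Molm-14 with RMC-4550, replicates 1 and 3 of MV4-11 with DMSO, and replicate 1 of MV4-11 with RMC-4550. For the 10 genes, results that rest on them are given with and without them below. For other single genes, most values are from all 18 libraries only. Without the 4, MV4-11 with DMSO has 1 library, which the fit assumes to vary like the other groups. All 6 myeloid markers examined reached 1 CPM in some library, as did 3 of 4 B cell, 3 of 3 fibroblast, 1 of 3 epithelial, 1 of 3 erythroid and 0 of 3 T cell markers, and their part in the results was not tested. RUNX1T1, part of the t(8;21) fusion of SKNO-1, reached 13.8 ± 0.61 CPM (SD, n = 3) in DMSO cultures of SKNO-1 and had 0 reads in those of the other lines. POU4F1, the other t(8;21) marker examined, went the opposite way, at 0.77 CPM in SKNO-1, 13.2 in Molm-14 and 2.27 in MV4-11 with DMSO.

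CCND3 was the leading D cyclin transcript per kb in all 3 lines, CCND2 came next and CCND1 was a small part. With DMSO, CCND3 made up 73.5% ± 0.41 of the summed D cyclin level per kb for Molm-14, 71.4% ± 2.04 for MV4-11 and 65.8% ± 0.89 for SKNO-1 (SD, n = 3). CCND2 made up 22.5% ± 0.46, 24.5% ± 3.00 and 33.7% ± 0.86 in the same order of lines. The ranges of the 2 genes did not overlap in any line. CCND1 made up 3.96% ± 0.22, 4.15% ± 0.99 and 0.53% ± 0.10. The order within SKNO-1 turned on which length was used, because the longest CCND2 transcript has 6480 bases and that of CCND3 has 2394, while their coding sequences have 867 and 876 bases. Per kb of coding sequence, CCND2 led in SKNO-1 with 58.0% ± 0.93 against 41.4% ± 0.96 for CCND3. On that scale CCND3 still led in Molm-14, with 51.7% ± 0.55 against 43.3% ± 0.67. In MV4-11 the coding-length shares of 49.0% ± 2.92 and 45.9% ± 4.27 lay within the spread of the replicates. The transcript isoforms used in these cells are not resolved by a table of 1 value per gene, so the scale could not be chosen from the data.

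The mean summed D cyclin level was lower with the inhibitor in each line, by amounts that were not tested. Per kb of transcript it was 101 ± 3.44 CPM in Molm-14 with DMSO and 70.6 ± 12.01 with RMC-4550. The treated Molm-14 libraries had 79.9, 57.0 and 75.0 CPM, and that at 57.0 is the library of high mitochondrial share. In MV4-11 the sum went from 74.4 ± 5.48 to 67.5 ± 2.85, and in SKNO-1 from 58.5 ± 2.33 to 43.9 ± 1.73. The MV4-11 libraries overlapped, at 72.4, 80.6 and 70.2 CPM with DMSO and 65.4, 66.3 and 70.7 CPM with RMC-4550. With the inhibitor, CCND3 held 79.8% ± 2.37, 77.0% ± 2.13 and 67.5% ± 1.71 of the sum, with the lines in the same order. The log2 ratio of CCND2 to CCND3 was lower by 0.38 in Molm-14 in the treated cultures, where the libraries of the 2 arms did not overlap (exact two-sided permutation p = 0.1, the smallest that 3 against 3 allows, and 0.2 after adjustment over 6 ratio tests). In MV4-11 and SKNO-1 it was lower by 0.33 and 0.09, with overlapping libraries in both (exact permutation p = 0.2 and 0.3, adjusted p = 0.3 for both).

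**Figure D1:**
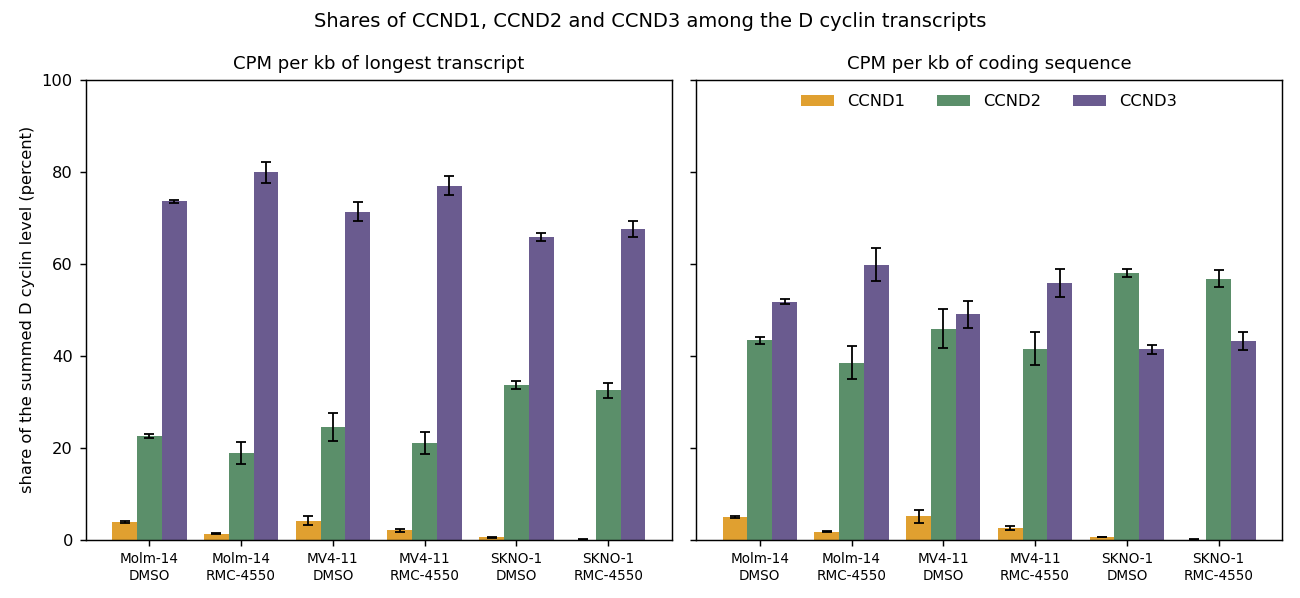
Share of CCND1, CCND2 and CCND3 in the summed D cyclin level of each group, in percent, as the mean of 3 libraries with SD bars. The left panel uses CPM per kb of the longest transcript and the right panel CPM per kb of coding sequence. CCND3 is the tallest bar in every group on the left, and CCND2 is the tallest in both SKNO-1 groups on the right.

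CCND2 was lower with RMC-4550 in all 3 lines. The gene (ENSG00000118971, chr12:4273772-4305350, plus strand) encodes cyclin D2, a D cyclin induced by cytokine and growth factor signals in blood cells. In Molm-14 it was read at 146, 147 and 149.7 CPM with DMSO and at 93.6, 79.4 and 82.5 CPM with the inhibitor. In MV4-11 the values were 127, 111 and 115 CPM against 100.2, 87.7 and 86.9 CPM, and in SKNO-1 125, 131 and 127 CPM against 93.5, 92.1 and 91.3 CPM. Every treated library lay below every DMSO library of its line. The log2 changes were -0.80 ± 0.08 (SE) for Molm-14, -0.36 for MV4-11 and -0.47 for SKNO-1 (limma adjusted p = 1.1e-06, 0.0063 and 0.00039). Leaving out the 4 libraries of high mitochondrial share gave -0.75, -0.34 and -0.47, all 3 still called, and a separate fit per line ended the call in MV4-11 (adjusted p = 0.15). In these bulk samples a smaller share of cells that express a gene and less RNA per cell cannot be told apart.

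CCND1 had the largest fitted falls of the 10 genes in Molm-14 and SKNO-1, from low starting levels. The gene (ENSG00000110092, chr11:69641087-69654474, plus strand) encodes cyclin D1, a classic target of ERK signalling. Molm-14 had 15.7, 17.9 and 18.2 CPM with DMSO and 4.92, 3.20 and 3.85 CPM with the inhibitor, a log2 change of -2.12 ± 0.47 (SE, adjusted p = 0.0016). SKNO-1 had only 1.20, 1.65 and 1.18 CPM with DMSO. Its treated libraries had at most 3 reads each, which puts the group at the detection floor. Taking 3 reads per library as the limit, CCND1 was at least 9.65-fold lower than the DMSO mean, which itself rests on 25 to 36 reads per library. The gene passed the filter in SKNO-1 through its DMSO libraries alone. Its fitted change there depends on the 0.5 added to the reads, so the test is not read as support for the fall. MV4-11 had 10.9, 18.4 and 11.1 CPM with DMSO and 4.70, 6.38 and 6.50 CPM with RMC-4550. The treated libraries of MV4-11 all lay below the DMSO libraries, and the log2 change of -1.17 ± 0.47 (SE) was not called (adjusted p = 0.12). It was called with log2(CPM + 1) (-1.05), with quantile normalization (-1.24), with voom weights (-1.17), in a separate fit per line (-1.17) and in a fit that held the mitochondrial share as a covariate (-1.39). The call was absent when the 4 libraries of high mitochondrial share were left out (-1.51, adjusted p = 0.11), 3 of which are from MV4-11.

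CCND3 (ENSG00000112576, chr6:41934933-42050357, minus strand) encodes cyclin D3, the D cyclin of proliferating lymphoid and myeloid progenitors. In Molm-14 it had 173, 176 and 186 CPM with DMSO and 154, 105 and 147 CPM with RMC-4550, and it fell by 0.42 on the log2 scale (SE 0.12, adjusted p = 0.0097). The lowest of these is the library of high mitochondrial share. In the fit that leaves out the 4 such libraries the log2 change was -0.24 (adjusted p = 0.0037), and in a separate fit per line the call was lost (adjusted p = 0.069). In SKNO-1 the values were 86.8, 94.2 and 95.4 CPM against 65.8, 73.7 and 73.6 CPM, with no overlap and a log2 change of -0.38 (adjusted p = 0.028). That call was lost without any 1 SKNO-1 library other than replicate 1 with DMSO, with log2 changes from -0.40 to -0.32, and with no filter on low values (adjusted p = 0.066) or median-ratio scaling (-0.31, adjusted p = 0.050). In MV4-11 the libraries overlapped, at 120.3, 142 and 119 CPM with DMSO and 117, 123 and 134 CPM with RMC-4550 (log2 change -0.03, 95% interval -0.28 to 0.22, adjusted p = 0.91).

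CDK4 and CDK6, the catalytic partners of the D cyclins, were called in no line, and their values followed the mitochondrial share of the library more closely than those of any other of the 10 genes. CDK4 (ENSG00000135446, chr12:57747727-57756013, minus strand) had 63.5, 69.8 and 73.8 CPM in Molm-14 with DMSO and 43.3, 6.41 and 42.4 CPM with RMC-4550. In MV4-11 it had 13.8, 49.7 and 8.44 CPM with DMSO and 14.9, 41.6 and 43.0 CPM with the inhibitor. All 4 values under 15 CPM belong to the 4 libraries of high mitochondrial share. In SKNO-1, where no library had a high share, CDK4 had 41.8, 44.8 and 43.4 CPM with DMSO and 25.2, 28.2 and 26.1 CPM with RMC-4550, and the arms did not overlap. The fitted log2 changes were -1.60 for Molm-14 (adjusted p = 0.056), 0.73 for MV4-11 (0.53) and -0.71 for SKNO-1 (0.47), all with a standard error of 0.65 that the 6 groups share. The same values without the 4 libraries were -0.69 (adjusted p = 4.4e-07), -0.23 (0.080) and -0.71 (1.1e-07), so that CDK4 was then lower in Molm-14 and SKNO-1.

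CDK6 (ENSG00000105810, chr7:92604921-92836594, minus strand), the main D cyclin kinase of blood progenitors, showed the same 4 low libraries. Molm-14 had 279, 286 and 297 CPM with DMSO and 289, 92.1 and 259 CPM with RMC-4550. MV4-11 had 106, 254 and 76.4 CPM with DMSO and 101, 224 and 202 CPM with the inhibitor. In SKNO-1 the arms overlapped, at 198, 182 and 176 CPM with DMSO and 183, 184 and 171 CPM with RMC-4550. The log2 changes were -0.59, 0.38 and -0.05 (adjusted p = 0.25, 0.62 and 0.95). Without the 4 libraries they were -0.07 (adjusted p = 0.36), -0.25 (0.040) and -0.05 (0.52), so that CDK6 was then called lower in MV4-11. The 95% interval in SKNO-1 in the fit over all 18 libraries ran from -0.93 to 0.84. Which kinase was more abundant depended on the length used: in Molm-14 with DMSO, CDK4 had 33.3 ± 2.503 and CDK6 24.8 ± 0.78 CPM per kb of transcript, but 76.0 ± 5.72 and 294 ± 9.27 CPM per kb of coding sequence.

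Within each group that held both kinds of library, the ratio of the high-share to the other libraries was 0.150 for CDK4 and 0.336 for CDK6 in treated Molm-14, 0.224 and 0.360 in MV4-11 with DMSO, and 0.352 and 0.473 in MV4-11 with RMC-4550. CCND2 had ratios of 0.902, 1.09 and 1.15 in the same groups. Over the 18 libraries, the Pearson correlation of the log2 level with the log2 mitochondrial share was -0.882 for CDK4, -0.861 for CDK6 and -0.751 for CDKN1B. It lay between -0.196 and 0.508 for the other 7 genes. These are descriptions, since the libraries share lines and treatments. The part of this library property in the changes of CDK4 and CDK6 was tested only by leaving the 4 libraries out and by taking the share as a covariate, and its source was not tested. The log2 ratio of CDK6 to CDK4 was 2.25, 2.02 and 2.02 in SKNO-1 with DMSO and 2.86, 2.70 and 2.71 with RMC-4550, a difference of 0.66 with no overlap (exact permutation p = 0.1, adjusted p = 0.2). In Molm-14 it was 2.14, 2.03 and 2.01 against 2.74, 3.85 and 2.61 (difference 1.005, exact permutation p = 0.1, adjusted p = 0.2), and in MV4-11 the arms overlapped (difference -0.35, exact permutation p = 0.3, adjusted p = 0.3).

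**Figure D2:**
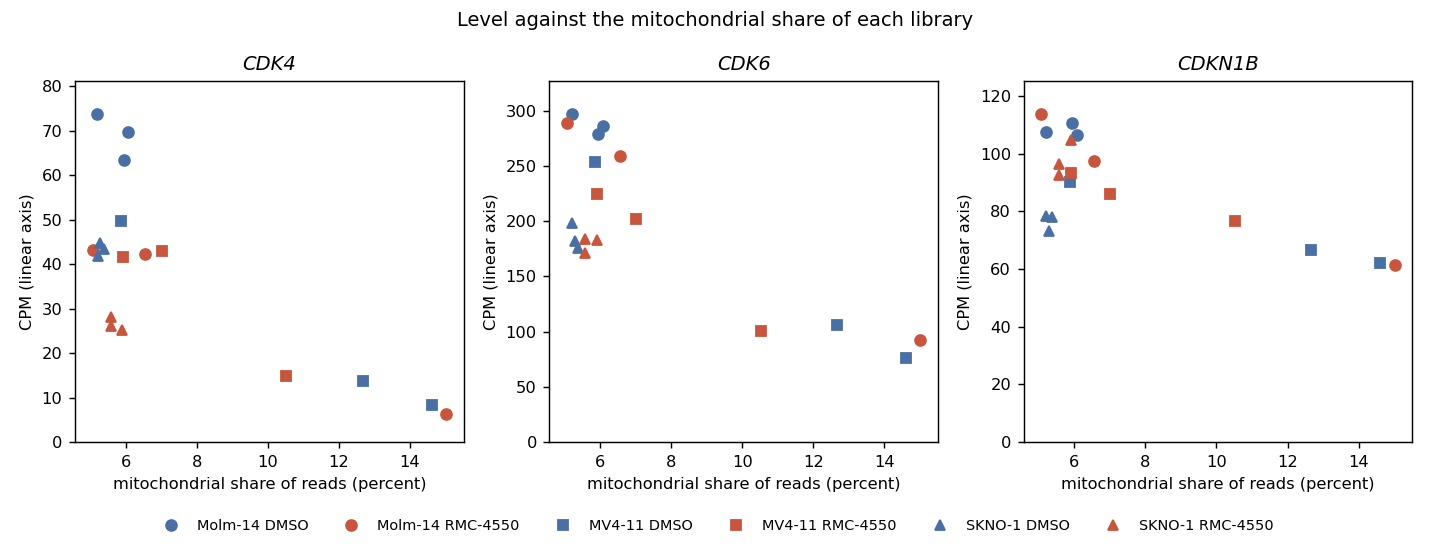
Level of CDK4, CDK6 and CDKN1B in CPM (vertical, linear axis) against the mitochondrial share of reads in percent (horizontal) in each of the 18 libraries, with lines as marker shapes and treatments as colours. The 4 libraries to the right of 10% have CDK4 values from 6.41 to 14.9 CPM, below all other libraries.

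Promoter sequence is shown for CDK4 and CDK6 because their levels moved together across libraries (Pearson r 0.942 over 18). That correlation includes the 4 libraries of high mitochondrial share, in which both genes were low. In SKNO-1, which has no such library, the log2 change with RMC-4550 was -0.71 for CDK4 and -0.05 for CDK6. Shared regulation was not tested. Sequence is also shown for CDKN2C because it was called in opposite directions in 2 lines. RefSeq promoter windows (GRCh38.p14) were matched for 7 of the 10 genes, with 12 windows of 250 bases before an annotated start; CCND1, CCND2 and CDKN1C had no entry. The windows were searched on both strands for the E-box CACGTG bound by MYC and related factors, for E2F sites (TTTCGCGC, TTTGGCGC, TTTCCCGC), for the GC box GGGCGG and for the forkhead core TGTTTAC, which do not overlap one another as written. The E-box was found in 3 of the 12 windows, against 6.34% of 35116 promoters of the same length. These were the CDK4 window and windows at different starts of CDKN2C. Several genes have more than 1 window, so the counts are of windows and not of genes. The GC box was in 9 of 12 (42.6% of all promoters). No E2F or forkhead match was found in these windows (2.32% and 2.98% of all promoters). The CDK4 window held 3 E-boxes, 216, 196 and 101 bases before the start, shown in capitals with 12 bases on each side, on the minus strand at chr12:57752509-57752538, chr12:57752489-57752518 and chr12:57752394-57752423. The CDK6 stretch (chr7:92836595-92836823, minus strand) had none, and the CDKN2C stretch (chr1:50960495-50960744, plus strand) had 1, 220 bases before the start. A CDKN2C window that is not printed (chr1:50969995-50970244) had 1, 69 bases before its start, and the remaining CDKN2C window had none. A match is only a run of letters in the reference and does not show that a factor binds there.
CDK4, E-box at 216: atgtcaagcggtCACGTGtgatagcaacag
CDK4, E-box at 196: atagcaacagatCACGTGgctgccatcgcc
CDK4, E-box at 101: atgggtggcggtCACGTGcccagaacgtcc
CDK6: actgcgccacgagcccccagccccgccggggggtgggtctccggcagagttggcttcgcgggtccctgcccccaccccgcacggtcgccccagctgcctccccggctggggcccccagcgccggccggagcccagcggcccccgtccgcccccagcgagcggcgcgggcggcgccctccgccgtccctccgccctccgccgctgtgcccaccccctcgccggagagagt
CDKN2C: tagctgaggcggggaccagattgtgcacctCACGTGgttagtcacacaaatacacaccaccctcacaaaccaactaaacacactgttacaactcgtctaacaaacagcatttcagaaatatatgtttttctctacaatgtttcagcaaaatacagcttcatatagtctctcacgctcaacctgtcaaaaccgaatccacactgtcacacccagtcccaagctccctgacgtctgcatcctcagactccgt

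CDKN1C rose with RMC-4550 in all 3 lines, most in Molm-14. The gene (ENSG00000129757, chr11:2883213-2885773, minus strand) encodes p57, an imprinted CIP/KIP inhibitor associated with quiescence of blood stem cells. In Molm-14 it had 2.67, 2.42 and 2.56 CPM with DMSO and 14.8, 23.1 and 18.3 CPM with the inhibitor, a log2 change of 2.84 ± 0.20 (SE, adjusted p = 4.0e-08). MV4-11 had 9.36, 6.09 and 11.0 CPM with DMSO and 17.0, 11.2 and 14.2 CPM with RMC-4550 (log2 change 0.70, adjusted p = 0.030). SKNO-1 had 7.94, 7.80 and 8.57 CPM with DMSO and 12.3, 13.8 and 12.3 CPM with RMC-4550 (log2 change 0.65, adjusted p = 0.024). All treated libraries lay above the DMSO libraries of their line, and in Molm-14 the group mean went from below those of the other lines with DMSO to above theirs with RMC-4550. In MV4-11 the call was lost in a separate fit per line (adjusted p = 0.20) and with no filter on low values (adjusted p = 0.056). It was also lost without replicate 2 with DMSO (log2 change 0.46), replicate 1 with RMC-4550 (log2 change 0.56) or replicate 3 with RMC-4550 (log2 change 0.69), and without the 4 libraries of high mitochondrial share the log2 change was 1.05 (adjusted p = 0.00039). In SKNO-1 it was lost when DMSO replicate 1, DMSO replicate 2, RMC-4550 replicate 2 or RMC-4550 replicate 3 was left out, at log2 changes from 0.60 to 0.68.

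CDKN1A had the highest group mean of the 10 genes per kb of transcript in every group, and its change with the inhibitor was not called in any line. The gene (ENSG00000124762, chr6:36676460-36687339, plus strand) encodes p21, the p53-induced CIP/KIP inhibitor. In SKNO-1 with RMC-4550 this order did not hold throughout: CDKN1B was above it in replicate 1 (39.5 against 36.1 CPM per kb of transcript), and per kb of coding sequence the mean of CDK6 was 183 against 176 CPM for CDKN1A. Molm-14 had 589, 623 and 633 CPM with DMSO and 912, 545 and 861 CPM with RMC-4550. The value of 545 CPM belongs to the library of high mitochondrial share, and the log2 change of 0.29 (adjusted p = 0.16) became 0.53 without the 4 such libraries (adjusted p = 1.2e-06), when CDKN1A was higher in Molm-14. MV4-11 had 343, 449 and 299 CPM against 333, 389 and 412 CPM (log2 change 0.07, adjusted p = 0.83, and -0.17 without the 4 libraries). SKNO-1 had 95.7, 104.9 and 99.6 CPM against 81.8, 92.1 and 86.5 CPM, with no overlap. The log2 change of -0.21 missed the threshold (adjusted p = 0.40) and passed it without the 4 libraries (adjusted p = 0.0038).

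CDKN1B (ENSG00000111276, chr12:12715058-12722371, plus strand) encodes p27, the CIP/KIP inhibitor that restrains CDK2 in resting cells. In SKNO-1 it had 78.4, 73.2 and 77.9 CPM with DMSO and 104.9, 92.6 and 96.5 CPM with RMC-4550. All treated libraries were higher, by 0.36 on the log2 scale, without a call (adjusted p = 0.15). The same value was called without the 4 libraries of high mitochondrial share, none of which is from SKNO-1 (adjusted p = 0.00015). In Molm-14 the values were 111, 107 and 108 CPM against 114, 61.5 and 97.4 CPM, and in MV4-11 66.7, 90.2 and 62.2 CPM against 76.6, 93.3 and 86.1 CPM. The arms overlapped in both, with log2 changes of -0.30 and 0.24 (adjusted p = 0.17 and 0.43). Without the 4 libraries these were -0.04 and -0.0089 (adjusted p = 0.64 and 0.96), and without replicate 1 with RMC-4550 the Molm-14 value was -0.48 and called (adjusted p = 0.029).

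CDKN2C rose in Molm-14 and fell in SKNO-1. The gene (ENSG00000123080, chr1:50960745-50974633, plus strand) encodes p18, an INK4 inhibitor of CDK4 and CDK6. Molm-14 had 139, 136 and 144 CPM with DMSO and 187, 166 and 188 CPM with RMC-4550, a log2 change of 0.37 ± 0.07 (SE, adjusted p = 0.00039). SKNO-1 had 47.6, 48.4 and 47.1 CPM with DMSO and 33.4, 35.4 and 34.5 CPM with the inhibitor, a log2 change of -0.47 ± 0.07 (SE, adjusted p = 8.9e-05). The arms did not overlap in either line. In MV4-11 they did, at 80.1, 87.1 and 79.5 CPM with DMSO and 86.1, 88.2 and 89.8 CPM with RMC-4550 (log2 change 0.10, 95% interval -0.05 to 0.24, adjusted p = 0.39).

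CDKN2D (ENSG00000129355, chr19:10566462-10569059, minus strand) encodes p19, the other INK4 inhibitor followed here. It rose in Molm-14, from 14.7, 15.2 and 16.3 CPM with DMSO to 18.7, 24.4 and 22.5 CPM with RMC-4550 (log2 change 0.50, adjusted p = 0.0018). In SKNO-1 it had 23.6, 25.2 and 24.7 CPM against 20.6, 21.9 and 20.5 CPM. Those arms did not overlap, and the log2 change of -0.22 missed the threshold (adjusted p = 0.16) and passed it without the 4 libraries of high mitochondrial share (adjusted p = 0.025). In MV4-11 the arms overlapped, at 25.99, 22.1 and 26.3 CPM against 25.4, 19.9 and 22.02 CPM (log2 change -0.15, adjusted p = 0.45). The remaining INK4 genes were looked at after their values were seen: CDKN2A, which encodes p16 and p14ARF, had at most 1 read in any Molm-14 library and 72.3 ± 21.8 CPM in MV4-11 and 84.6 ± 5.53 CPM in SKNO-1 with DMSO. CDKN2B, which encodes p15, had 0 reads in all 6 Molm-14 libraries and at most 1.55 CPM elsewhere.

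**Figure D3:**
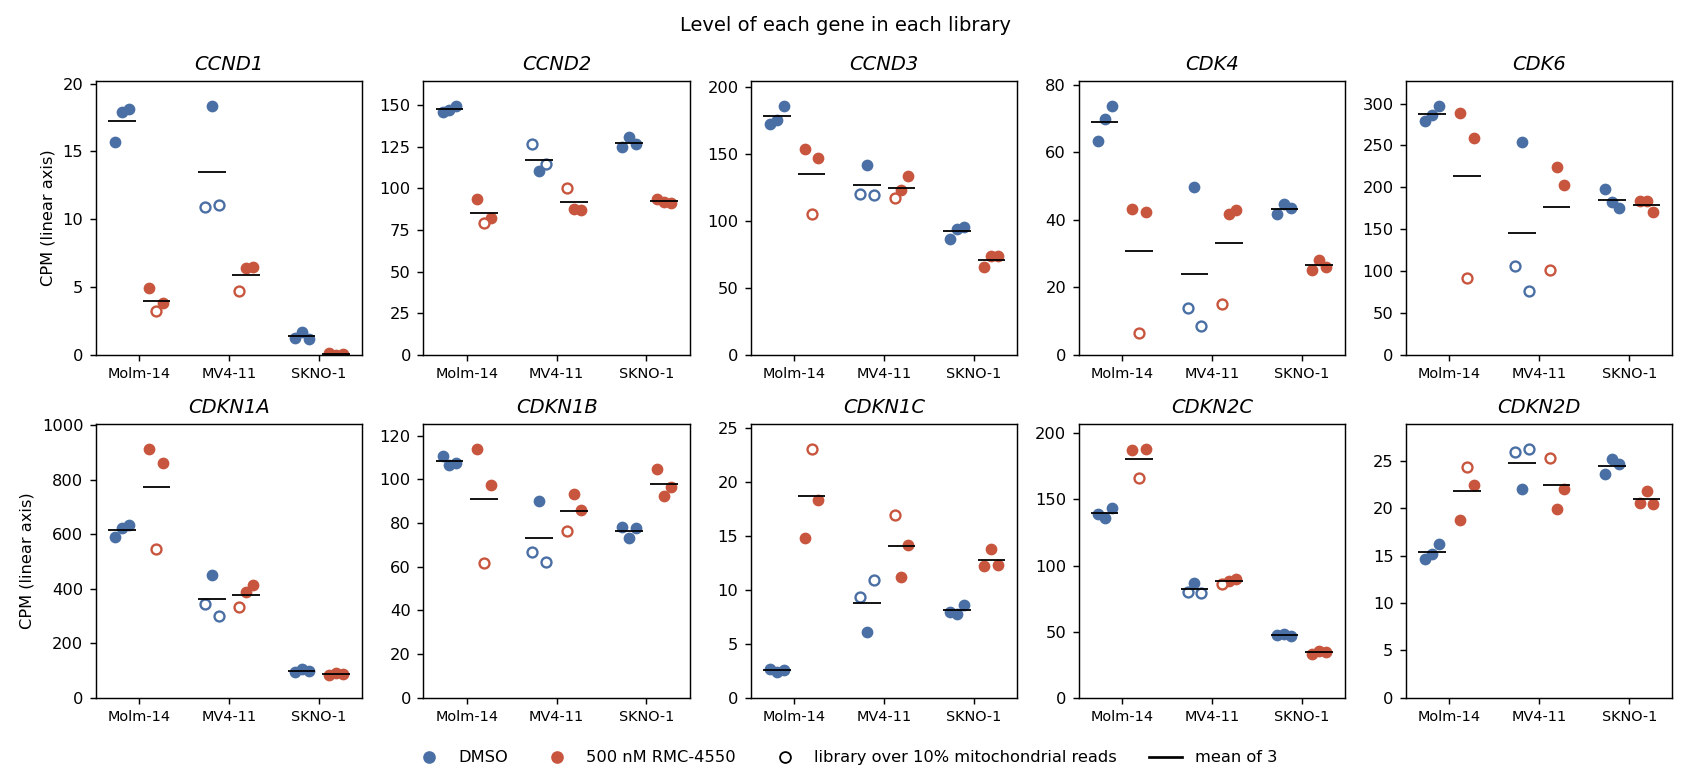
Level of each of the 10 genes in CPM (vertical, linear axis from 0) in each library, by line, with DMSO in blue, 500 nM RMC-4550 in red, open circles for the 4 libraries over 10% mitochondrial reads and a bar at the mean of 3. CCND2 is lower and CDKN1C higher in the treated libraries of every line, and the open circles are the 4 lowest points for CDK4.

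Counted together, 3 of the 10 genes rose and 3 fell in Molm-14, where 46.7% of the 13971 genes tested were called (21.5% higher, 25.2% lower). In MV4-11, 1 rose and 1 fell (13.9% of 14739 genes called, with 5.85% higher and 8.03% lower), and in SKNO-1 1 rose and 4 fell (27.1% of 14670, with 10.8% higher and 16.2% lower). The 4 falls in SKNO-1 include CCND1, which passed the filter there through its DMSO libraries alone. The counts lie within 3 genes of what these shares would give for 10 genes, so the number of calls by itself does not set these genes apart. Arms without overlap were found for 7 of 10 genes in Molm-14 (60.0% of all genes tested), 3 in MV4-11 (24.6%) and 9 in SKNO-1 (62.0%). The median log2 change of the 10 genes was -0.36, 0.09 and -0.30, against -0.06, -0.01 and -0.05 over all genes tested in the respective line. With the 4 libraries of high mitochondrial share left out, 4 rose and 4 fell in Molm-14, 1 rose and 2 fell in MV4-11, and 2 rose and 7 fell in SKNO-1. Over all genes tested, the share called in that fit was higher too, at 58.7%, 28.4% and 53.3% in the same order. The SKNO-1 libraries are the same in both fits and only the shared estimate of the spread differs.

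**Figure D4:**
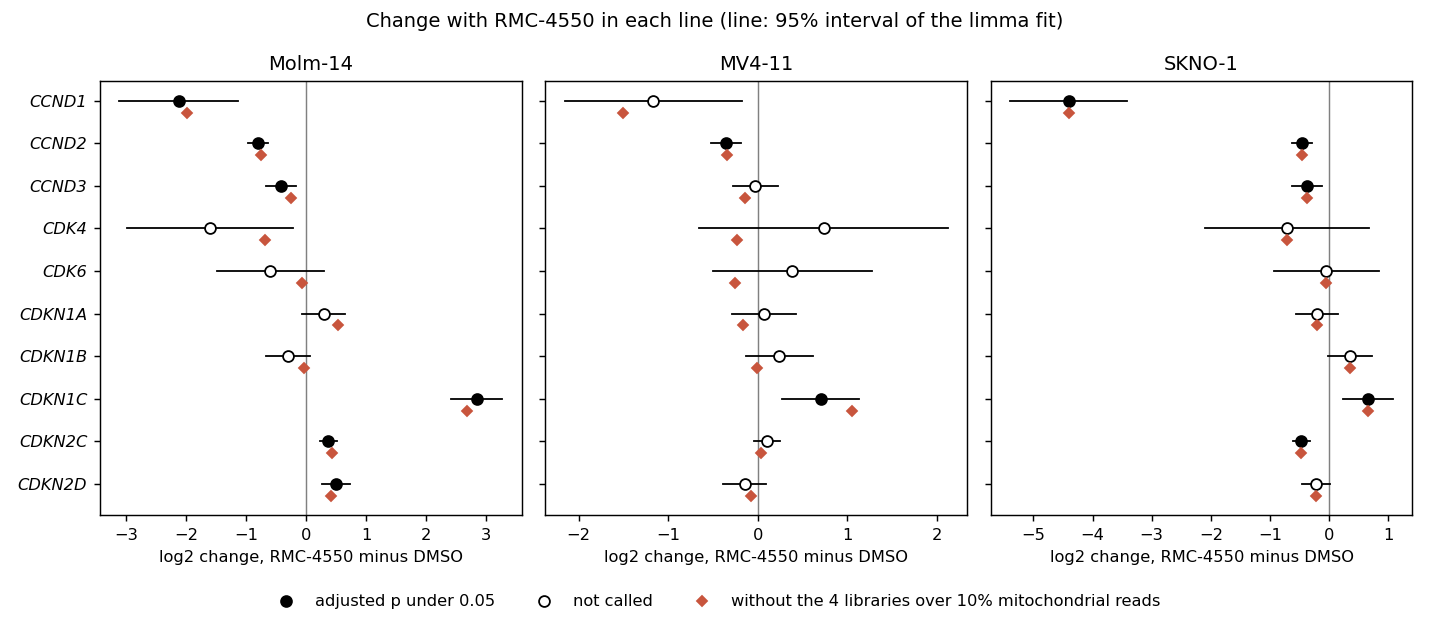
Log2 change of each gene with RMC-4550 in each line (horizontal, with a different range in each panel), with the 95% interval of the limma fit over 18 libraries. Filled circles are called at an adjusted p under 0.05, open circles are not, and red diamonds are the values without the 4 libraries over 10% mitochondrial reads. The diamond and the circle differ most for CDK4 in Molm-14 (-0.69 and -1.60) and in MV4-11 (-0.23 and 0.73), and the SKNO-1 circle for CCND1 is a fitted value for a treated group at the detection floor.

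The response itself was then compared between lines. Between SKNO-1 and Molm-14, 4 of the 10 genes were called, CCND1 among them (10.9% of 12882 genes called). The response of SKNO-1 was lower by 2.19 log2 units for CDKN1C, by 0.84 for CDKN2C and by 0.72 for CDKN2D. For CDKN2C this was a rise in one line and a fall in the other. Between SKNO-1 and MV4-11, CDKN2C (-0.57, adjusted p = 0.0041) and CCND1 were called (1.66% of 13897 called). Between MV4-11 and Molm-14, CDKN1C (-2.14, adjusted p = 0.00020), CDKN2D (-0.65, adjusted p = 0.012) and CCND2 (0.44, adjusted p = 0.015) differed (19.5% of 13458 called), so that CDKN1C and CDKN2D responded less upward in MV4-11 and CCND2 less downward. The CCND2 difference lost its call with no filter on low values (adjusted p = 0.059) and with quantile normalization (adjusted p = 0.056). The CCND1 differences of -2.28 and -3.24 rest on a treated SKNO-1 group at the floor. On the log2(CPM + 1) scale the first was 0.74, of opposite sign and not called, and the second was -0.090 and not called. Neither is therefore read as a difference in response.

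The lines were also compared with each other in DMSO. In SKNO-1 against Molm-14 with DMSO, 2 were higher and 6 lower (65.3% of 14793 genes called, 31.8% higher and 33.6% lower). The largest differences were in CCND1 (log2 difference -3.68, adjusted p = 3.2e-06) and CDKN1A (-2.62, adjusted p = 7.6e-10), and CDKN2C was lower by 1.55 log2 units. CDKN1C and CDKN2D were higher in SKNO-1, by 1.66 and 0.67. The smallest called differences were those of CCND2 (-0.21) and CDKN1B (-0.50), which lost their calls without single libraries: CCND2 without any but SKNO-1 replicate 2, CDKN1B without Molm-14 replicate 1 or SKNO-1 replicate 2. In MV4-11 against Molm-14, 2 were higher, again CDKN1C (1.73) and CDKN2D (0.69), and 7 lower (54.2% of 14472 called, 25.1% higher and 29.1% lower). Among these 7, CDK4 (-1.94) and CDK6 (-1.18) rest on the 2 DMSO libraries of high mitochondrial share. Their calls were lost without replicate 1 or replicate 3 of MV4-11, without replicate 3 of Molm-14 and, for CDK6, without any Molm-14 library, and that of CDKN1B without replicate 3 of MV4-11. Leaving out the 4 libraries, the differences were -0.47 for CDK4 (adjusted p = 0.00038) and -0.18 for CDK6, which was then not called (adjusted p = 0.083). In SKNO-1 against MV4-11, 4 were lower and 0 higher (42.5% of 14748 called, 20.1% higher and 22.4% lower): CCND1 (-3.28), CDKN1A (-1.84), CDKN2C (-0.78) and CCND3 (-0.46). For the count of 0, at an unadjusted p under 0.05 the number higher was also 0. CCND2 differed least between lines among the D cyclins: it had 148 ± 1.96 CPM (Molm-14), 117 ± 8.37 (MV4-11) and 128 ± 3.17 (SKNO-1), and the last 2 were not called different (log2 difference 0.12, 95% interval -0.05 to 0.29, adjusted p = 0.23). Without the 4 libraries that difference was 0.20 and called (adjusted p = 0.024), and CDK6 (-0.46) and CDKN1B (-0.24) were then called lower in SKNO-1 than in MV4-11, against uncalled differences of 0.54 and 0.09 in the fit over 18 libraries.

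Genes that act beside and downstream of the D cyclin kinases were followed with a list of 31 genes of the RB pathway and the G1/S step. In Molm-14, 29 of them were tested, and 20 fell and 1 rose, with a median log2 change of -0.61, where 25.2% of all genes tested fell. In MV4-11, 12 of 30 fell and 1 rose (median -0.35; 8.03% of all genes fell), and in SKNO-1, 20 of 31 fell and 0 rose (median -0.62; 16.2% of all genes fell). In SKNO-1 the number that rose in the limma fit at an unadjusted p under 0.05 was also 0. The medians over all genes tested were -0.06, -0.01 and -0.05. With the 4 libraries of high mitochondrial share left out, 23, 18 and 24 fell, against 32.1%, 19.6% and 32.1% of all genes. A separate fit per line called 3 in MV4-11, where it called 4.57% of all genes. The gene that rose in Molm-14 (log2 change 0.86) and MV4-11 (0.51) was CCNA1, a cyclin of germ cells and myeloid leukaemias; in SKNO-1 its log2 change of 0.27 was not called (adjusted p = 0.15). The CCNA1 call in MV4-11 was lost without the 4 libraries (log2 change 0.42, adjusted p = 0.075) and in the separate fit (adjusted p = 0.11), and the separate fit called CCNA1 in SKNO-1 (adjusted p = 0.011).

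Called lower in all 3 lines were 12 genes of the list: E2F1, E2F2, E2F3, E2F4, E2F8, CCNE1, CCNE2, CDK2, CDC25A, CKS1B, SKP2 and CDKN3. The share of all genes called lower in all 3 lines was not counted, so the 12 serve to name genes and not to set the list apart. E2F1, an activator of S-phase genes, went from 34.1 ± 2.40 to 11.7 ± 1.01 CPM in Molm-14, from 32.8 ± 1.05 to 19.1 ± 1.11 CPM in MV4-11, and from 30.8 ± 1.395 to 8.50 ± 1.29 in SKNO-1. CDC25A, the phosphatase that activates CDK2, had log2 changes of -2.16, -0.82 and -2.16 in the same order. CDK2 itself, the partner of cyclin E, had -0.94, -0.74 and -1.30. SKP2 and CKS1B, which together direct p27 to degradation, fell by 0.53 and 1.45 in Molm-14, 0.42 and 0.62 in MV4-11, and 0.62 and 1.11 in SKNO-1. The largest called falls of the list were those of E2F7, an atypical repressor, in Molm-14 (-2.43), with CDC25A and CCNE2 (-1.83) next. In MV4-11 they were those of CDKN3 (-1.04), a phosphatase that acts on CDK2, of E2F2 (-0.96) and of E2F8 (-0.89). E2F7 had a log2 change of -0.89 there that was not called (adjusted p = 0.058). Over the MV4-11 DMSO libraries E2F7 spanned 8.50 to 18.5 CPM and E2F8 13.5 to 21.3 CPM. This order is from the fit over 18 libraries and is not given without those of high mitochondrial share, most of which are from MV4-11. In SKNO-1 the largest called falls were those of CDC25A, E2F2 (-2.08) and E2F8 (-2.01). RB1, which encodes RB itself, fell in Molm-14 (-0.61, adjusted p = 0.031), and its changes of -0.27 in both other lines were not called. Its lowest treated Molm-14 value (129.7 CPM) and its lowest MV4-11 DMSO value (113 CPM) belong to libraries of high mitochondrial share. The RB1 changes are not given without these libraries, so a fall in Molm-14 alone is not read from the calls.

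**Figure D5:**
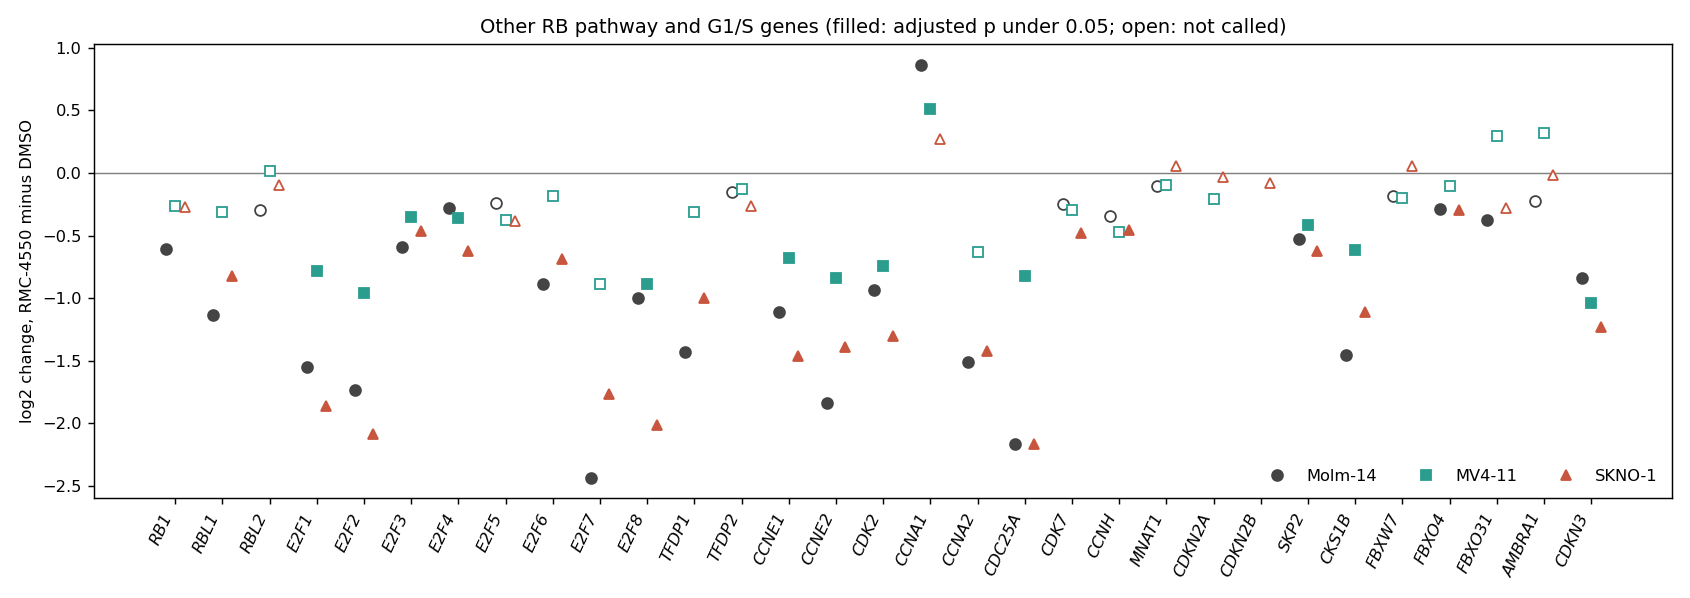
Log2 change with RMC-4550 (vertical) of the 31 genes of the RB pathway and G1/S list in Molm-14 (circles), MV4-11 (squares) and SKNO-1 (triangles). Filled symbols are called at an adjusted p under 0.05. Most filled symbols lie below 0, and CCNA1 has the only filled symbols above it.

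The genes whose log2 values ran most closely with each D cyclin over the 18 samples, among 11014 genes with a mean of at least 5 CPM, were ECE1, SLC7A5 and LDLRAD3 for CCND1 (Pearson r 0.968, 0.964 and 0.961), STARD4, ADAM15 and GSS for CCND2 (0.940, 0.935 and 0.932) and LAPTM4B, TYSND1 and UBL4A for CCND3 (0.986, 0.985 and 0.982). These correlations hold the differences between lines as well as those with treatment. Those for CCND1 also include the treated SKNO-1 libraries, where CCND1 was at the detection floor. Its log2 values there, -2.63, -5.43 and -3.86, depend on the constant added to the reads. In all other libraries CCND1 was at 0.26 or above. The weight of the floor values was not tested, so the CCND1 ranking is not read as likeness at measured levels. SLC7A5, an amino acid transporter, had 416 CPM in Molm-14 with DMSO and 301 with RMC-4550, and 216 and 110.3 CPM in SKNO-1. STARD4, a sterol transfer protein, had 152 and 70.2 CPM in Molm-14, 93.1 and 60.9 in MV4-11 and 104 and 70.2 in SKNO-1, so that like CCND2 it was lower with the inhibitor on average in each line. LAPTM4B, a lysosomal membrane protein, ordered the lines as CCND3 did, with 228, 66.5 and 24.5 CPM with DMSO. STARD4 and LAPTM4B were picked by correlation over these same libraries, so their likeness to CCND2 and CCND3 follows from that choice. Among the 10 genes themselves, CDKN1A and CDKN2C ran together most closely (Pearson r 0.973), both highest in Molm-14 and lowest in SKNO-1.

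Reads of overlapping genes limit a few of these values, since the counting method and its use of strand are not given in the sources used here. CDK4 overlaps MARCH9 and TSPAN31 on the other strand, which had 52.8 and 27.8 CPM in Molm-14 with DMSO. CCND1 overlaps LTO1, at 22.1 CPM in the same group and 16.0 CPM in SKNO-1 with RMC-4550, where CCND1 was at the floor. CDK6 overlaps AC002454.1, with group means of 3.65 to 11.9 CPM and at most 14.9 CPM in a library. CCND2, CCND3 and CDKN1A overlap antisense genes of at most 1.60 CPM in any library.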

How the data were processed

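Per the labels' protocols, RNA was bound by oligo(dT), fragmented and read on a DNA nanoball instrument. FastQC, STAR, limma and the build GRCh38 are named without versions in the submitters' processing notes, and the counter, annotation and strand setting are not given in the sources used here. The authors deposited 1 table of log2 values for 40184 Ensembl IDs, of which 40069 matched a symbol. From the values, each is the log2 of the CPM of a scaled library after adding 0.5 to the reads (factors 0.890 to 1.11), and undoing this gave whole reads for 100% of low values within 0.02 of a read. CPM come from these reads. Positions and lengths are from GENCODE 29 (GRCh38), with the longest transcript per gene.

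Changes were tested on the deposited log2 values with limma 3.58.1 in R 4.3.3 (lmFit, eBayes with trend, two-sided), with 1 fit over 18 samples and 1 coefficient per group. The fit took the 16262 genes that reached 1 CPM in 3 samples or more, and a contrast of treatment or response needed the same within each of its lines. Contrasts between lines in DMSO needed it in the DMSO samples of both lines together, so genes read in only 1 line were tested there. Benjamini-Hochberg adjustment ran over all genes tested in a contrast, and a gene was called under an adjusted p of 0.05. The fit was also run on simulated reads with the same spread in all libraries, so that run does not bear on groups of unequal spread. Ratios were compared by exact permutation. A group with at most 3 reads in each library was at the floor, which covers counting error only, since reads without molecular identifiers are not independent molecules. Libraries held at least 17434810 reads. All 10 genes are named, with those of the RB list called alike in all lines or among the 3 largest changes of a line, and the 3 genes most like each D cyclin. Members and lists were chosen with earlier results of these data known. The alternatives were log2(CPM + 1), no filter, median-ratio scaling, quantile normalization, the replicate number as a block, the mitochondrial share as a covariate, leaving out the 4 libraries of high share, voom weights, a separate fit per line, other length scales and leaving out each library. Those for the RB list were chosen after seeing the data. Plots used matplotlib 3.10.9 (Python 3.11.15).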

Additional observations from a re-analysis of the deposited data

Results flagged for a closer look

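An interaction contrast of the limma fit, for the response to RMC-4550 between lines, was called in 9 cases among the 10 genes. Each stands here because that test was passed. Both CCND1 cases rest on a treated SKNO-1 group at the detection floor and are not read as differences in response. In log2 units the response of SKNO-1 minus that of Molm-14 was -2.28 for CCND1 (adjusted p = 0.036), -2.19 for CDKN1C (0.00014), -0.84 for CDKN2C (4.8e-05) and -0.72 for CDKN2D (0.0077). The response of SKNO-1 minus that of MV4-11 was -3.24 for CCND1 (0.015) and -0.57 for CDKN2C (0.0041). The response of MV4-11 minus that of Molm-14 was 0.44 for CCND2 (0.015), -2.14 for CDKN1C (0.00020) and -0.65 for CDKN2D (0.012).

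CDKN1C, CDKN2C and CDKN2D were each called in 2 of the 3 comparisons, with no group at the detection floor. The CCND1 difference from Molm-14 lost its call without any 1 of Molm-14 DMSO replicates 1, 2 and 3, Molm-14 RMC-4550 replicates 1 and 3, or SKNO-1 RMC-4550 replicate 3, at -2.34 to -2.12. That from MV4-11 lost it without MV4-11 DMSO replicate 1 (-3.11) or MV4-11 RMC-4550 replicate 3 (-3.16). When a SKNO-1 DMSO library was left out, CCND1 missed the filter in SKNO-1, so neither CCND1 difference could be tested. The CCND1 difference from Molm-14 also lost its call with no filter on low values, with the replicate number as a block and with voom weights. With log2(CPM + 1) it changed sign, and the CCND1 difference from MV4-11 lost its call. Without the 4 libraries of high mitochondrial share, each flagged difference kept its sign, and those of CCND1 still rest on the floor.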

How the results depend on the processing

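Counts of called genes moved most often with the handling of the 4 libraries of high mitochondrial share. With the share as a covariate, 5 of the 10 genes were called in MV4-11 (2 in the reported fit), 9 in SKNO-1 (5), 7 between the responses of SKNO-1 and Molm-14 (4), 5 between those of MV4-11 and Molm-14 (3), and 8 between SKNO-1 and MV4-11 with DMSO (4). The share called over all genes was then 34.3%, 49.6%, 28.6%, 22.2% and 45.6%, against 13.9%, 27.1%, 10.9%, 19.5% and 42.5%. Without the 4 libraries the last 4 counts were 9, 7, 6 and 7 (53.3%, 30.2%, 17.7% and 41.1% of all genes). A separate fit per line called 1 in MV4-11 and 9 in SKNO-1 (4.57% and 57.6% of all genes), no filter on low values called 1 in MV4-11, and log2(CPM + 1) called 1 between the responses of SKNO-1 and MV4-11 (2). Leaving out single libraries gave 1 to 3 in MV4-11 (1 without DMSO replicate 2, RMC-4550 replicate 1 or RMC-4550 replicate 3) and 2 to 6 in SKNO-1 (2 or 3 without any library but RMC-4550 replicate 1). It gave 1 to 2 between the responses of SKNO-1 and MV4-11 (1 without MV4-11 DMSO replicate 1, MV4-11 RMC-4550 replicate 3 or any SKNO-1 DMSO library), and 3 to 7 between those of MV4-11 and Molm-14 (6 without Molm-14 RMC-4550 replicate 1, 7 without MV4-11 DMSO replicate 2). When a SKNO-1 DMSO library was left out, CCND1 missed the filter in SKNO-1 and was not tested, which by itself lowers the counts that involve SKNO-1. For the RB list in MV4-11 (13), the covariate called 23 and the separate fit 3, where 34.3% and 4.57% of all genes were called. The counts with no filter, with log2(CPM + 1) and without single libraries are not set beside a share over all genes. They are therefore not read as particular to the 10 genes.

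The values that changed sign were not called in the reported fit, with 1 exception, but some were called after the change. In MV4-11, CDK4 was -0.22 with the covariate and -0.23 without the 4 libraries, CDK6 -0.22 and -0.25 (both called, adjusted p = 0.038 and 0.040), CDKN1A -0.16 (called, adjusted p = 0.0497) and -0.17 and, without single libraries, -0.060 to 0.23. CDKN1B in MV4-11 was -0.0089 without the 4 libraries. CCND3 in MV4-11 was 0.012 with median-ratio scaling and -0.081 to 0.052 without single libraries. CDK6 in SKNO-1 was 0.017 with median-ratio scaling, 0.00050 with quantile normalization, 0.027 with the covariate and -0.083 to 0.0022 without single libraries. Between SKNO-1 and MV4-11 with DMSO, CDK6 was -0.54 with the covariate and -0.46 without the 4 libraries, and CDKN1B -0.34 and -0.24, all 4 called (adjusted p from 4.8e-05 to 0.040), with -0.020 to 0.25 without single libraries. The exception was the CCND1 difference between the responses of SKNO-1 and Molm-14, 0.74 with log2(CPM + 1).

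The CCND3 shares of 73.5%, 71.4% and 65.8% became 51.7%, 49.0% and 41.4% per coding kb and 51.9%, 49.2% and 41.7% without division by length. With the replicate number as a block, the counts of called genes stayed at 6 (Molm-14), 2 (MV4-11) and 5 (SKNO-1), and the only call lost among the 10 genes was the CCND1 difference between the responses of SKNO-1 and Molm-14 (adjusted p = 0.061). These counts are likewise given without the share over all genes in that fit. Same-numbered samples did not deviate together in every pair (r from -0.40 to 0.59), so the numbers were not taken to pair samples, and same-numbered samples did not all correlate best with each other. Depth limits CCND1 in SKNO-1, with 25 to 36 reads per DMSO library. The causes of these differences between settings were not tested.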
